A study of Mus musculus with 12 samples.

Results

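The comparison described here asks what the inhibitor C-178 did to mRNA levels in macrophages that were also given the agonist CMA. Macrophages grown from the bone marrow of C57Bl/6 mice (primary cells) received either CMA alone or C-178 together with CMA for 2 h. The libraries were chosen by treatment label: the 3 CMA libraries and the 3 C-178 plus CMA libraries make up 6 of the 12 in the study. The other 6 came from the same kind of cells left without stimulation (3 libraries) or given C-178 alone (3 libraries), and they are used as reference levels. All groups are wild type and no other agent or allele is named. The sources used here give neither the doses nor the order in which the agents were added. Nothing in the labels says that the libraries of a group came from separate mice or cultures, so the p-values below measure the spread between these libraries, which may be technical.

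CMA (10-carboxymethyl-9-acridanone) is a small molecule that binds and activates the mouse form of STING, a membrane protein of the endoplasmic reticulum. C-178 is a covalent small-molecule inhibitor of STING, as the title of the series has it. Active STING recruits the kinase TBK1, which phosphorylates the transcription factor IRF3, and IRF3 together with NF-κB and AP-1 switches on the interferon beta gene. Secreted interferon then acts on its receptor, and receptor-bound JAK kinases and a complex of STAT factors with IRF9 raise the interferon-stimulated genes, many of which IRF3 can also raise directly. STING also activates NF-κB, whose targets include inflammatory cytokines and its own inhibitors.

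The promoters of 6 genes on which the results turn are shown because they hold different binding motifs for these factors. Each line gives the 250 bases before the transcription start, 5′ to 3′ on the strand of the gene, from the RefSeq annotation of GRCm38.p6. Capitals mark every match, on either strand, to 4 motifs: the interferon-stimulated response element (ISRE, searched as GAAA, any 2 bases, GAAA), the κB site of NF-κB (searched by its 10-base consensus), the AP-1 site (TGANTCA) and the antioxidant response element (ARE, searched as TGACNNNGC). ISRE and κB matches can overlap others of their own kind, and AP-1 matches can overlap ARE matches. A match is only a match of letters.
Ifnb1: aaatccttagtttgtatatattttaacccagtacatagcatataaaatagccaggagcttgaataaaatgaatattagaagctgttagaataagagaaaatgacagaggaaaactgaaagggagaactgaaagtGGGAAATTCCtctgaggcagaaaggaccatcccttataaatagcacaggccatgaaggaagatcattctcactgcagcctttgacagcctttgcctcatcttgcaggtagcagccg
Cxcl9: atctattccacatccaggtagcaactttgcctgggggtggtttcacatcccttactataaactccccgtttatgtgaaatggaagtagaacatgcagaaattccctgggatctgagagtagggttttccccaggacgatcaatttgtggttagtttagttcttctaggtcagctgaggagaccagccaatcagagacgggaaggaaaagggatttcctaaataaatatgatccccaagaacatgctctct
Cxcl10: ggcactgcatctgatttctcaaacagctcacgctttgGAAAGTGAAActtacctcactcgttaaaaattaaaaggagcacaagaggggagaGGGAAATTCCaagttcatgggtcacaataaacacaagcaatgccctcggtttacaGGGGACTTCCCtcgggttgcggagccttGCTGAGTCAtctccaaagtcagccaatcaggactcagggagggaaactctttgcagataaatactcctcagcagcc
Tnfaip3: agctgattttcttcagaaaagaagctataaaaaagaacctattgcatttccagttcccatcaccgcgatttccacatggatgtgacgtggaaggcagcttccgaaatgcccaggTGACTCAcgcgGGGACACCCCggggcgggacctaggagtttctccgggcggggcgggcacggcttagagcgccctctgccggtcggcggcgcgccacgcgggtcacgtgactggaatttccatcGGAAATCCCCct
Ppp1r15a: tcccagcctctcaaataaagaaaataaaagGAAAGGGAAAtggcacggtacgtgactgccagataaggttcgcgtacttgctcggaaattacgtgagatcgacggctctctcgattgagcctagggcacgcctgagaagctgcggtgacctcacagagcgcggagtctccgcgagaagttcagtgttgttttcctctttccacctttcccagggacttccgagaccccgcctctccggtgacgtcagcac
Isg15: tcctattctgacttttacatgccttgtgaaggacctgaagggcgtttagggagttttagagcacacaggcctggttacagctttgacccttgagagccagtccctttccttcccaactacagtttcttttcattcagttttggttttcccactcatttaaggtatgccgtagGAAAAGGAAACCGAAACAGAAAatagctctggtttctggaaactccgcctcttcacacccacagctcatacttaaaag
The window of Ifnb1 is chr4:88522795-88523044 and holds 1 κB match. Cxcl9 (chr5:92328080-92328329) holds none of the 4 motifs, whereas Cxcl10 (chr5:92348890-92349139) holds an ISRE, κB, AP-1 and ARE matches. Tnfaip3 (chr10:19015411-19015660) holds 2 κB matches and 1 AP-1 match in the window shown, and none of the 4 motifs in a second window at chr10:19011964-19012213. Ppp1r15a (chr7:45526269-45526518) holds 1 ISRE match, and Isg15 (chr4:156200819-156201068) 3 overlapping ISRE matches. All 6 lie on the minus strand. Among all 32851 promoter windows of this length, 3.0% held an ISRE match, 7.3% a κB match, 6.7% an AP-1 match and 10.2% an ARE match.

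Levels are the authors' normalised counts, and changes are differences of log2(normalised count + 1), C-178 plus CMA minus CMA, so that a negative value means a lower level with the inhibitor and changes of low genes are understated. A gene is said to have fallen or risen where limma, fitted to all 12 libraries and all 11440 genes that passed a filter on low values, gave a Benjamini-Hochberg adjusted p under 0.05. Of these genes 1543 fell (13.5%) and 1217 rose (10.6%). A change of at least 2-fold was seen for 644 that fell (5.63%) and 256 that rose (2.24%), and the median change of all genes was 0.004. The groups did not overlap for 2116 lower (18.5%) and 1941 higher genes (17.0%). Genes named for the size of their change or for a high level had to have groups apart, so this is no separate support. The numbers rest on a spread pooled over the 4 groups. With only these 6 libraries in the fit, 593 genes fell and 261 rose, 425 and 125 of them at least 2-fold. List counts given below for the 2 groups alone stand beside these totals of 11440 genes, not beside the shares of the main fit. A low count there need not be particular to a list. Where a named list gene lost its call in that smaller fit, its p there is given as the 2-group adjusted p.

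The 3 C-178 plus CMA libraries did not move to the same extent. Library 2 lay nearest to the CMA mean for 77.3% of the genes that fell and 71.7% of those that rose, and library 3 lay farthest for 65.1% and 50.9%. The median change of the fallen genes against the CMA mean was -0.95, -0.52 and -1.19 in libraries 1, 2 and 3. Without library 2, the counts were 2532 lower and 2179 higher genes, 1071 and 529 at least 2-fold. Without library 3, 422 genes were at least 2-fold lower. Leaving out CMA library 2 gave 747 lower (408 at least 2-fold) and 597 higher genes, and leaving out CMA library 3 gave 835 and 602. The counts were 1208 and 840 without C-178 plus CMA library 1, 1243 and 968 without library 3, and 1354 and 983 without CMA library 1. List counts given below with a library left out stand beside these totals of 11440 genes, not beside the shares of the main fit. Sequencing depth, as reads recovered from the values, ran from 7.13 to 7.83 M in the CMA libraries and was 36.4, 8.81 and 7.77 M in C-178 plus CMA libraries 1, 2 and 3. The median SD of a gene's log2 level was 0.34 among the C-178 plus CMA libraries and 0.15 among the CMA libraries.

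Transcript length and base composition moved with the change. Genes that fell had a median transcript length of 4484 bases and genes that rose one of 2898, against 3431 for all 10917 tested genes with a length. Across those genes the Spearman correlation of the change with length was -0.37 and with GC content 0.40, a description over genes that share libraries. The correlation with length was -0.30, -0.05 and -0.45 in C-178 plus CMA libraries 1, 2 and 3. With the trend on length and GC removed, 1186 genes fell and 1139 rose. The part of length and composition in the single results was not tested further.

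**Figure D1:**
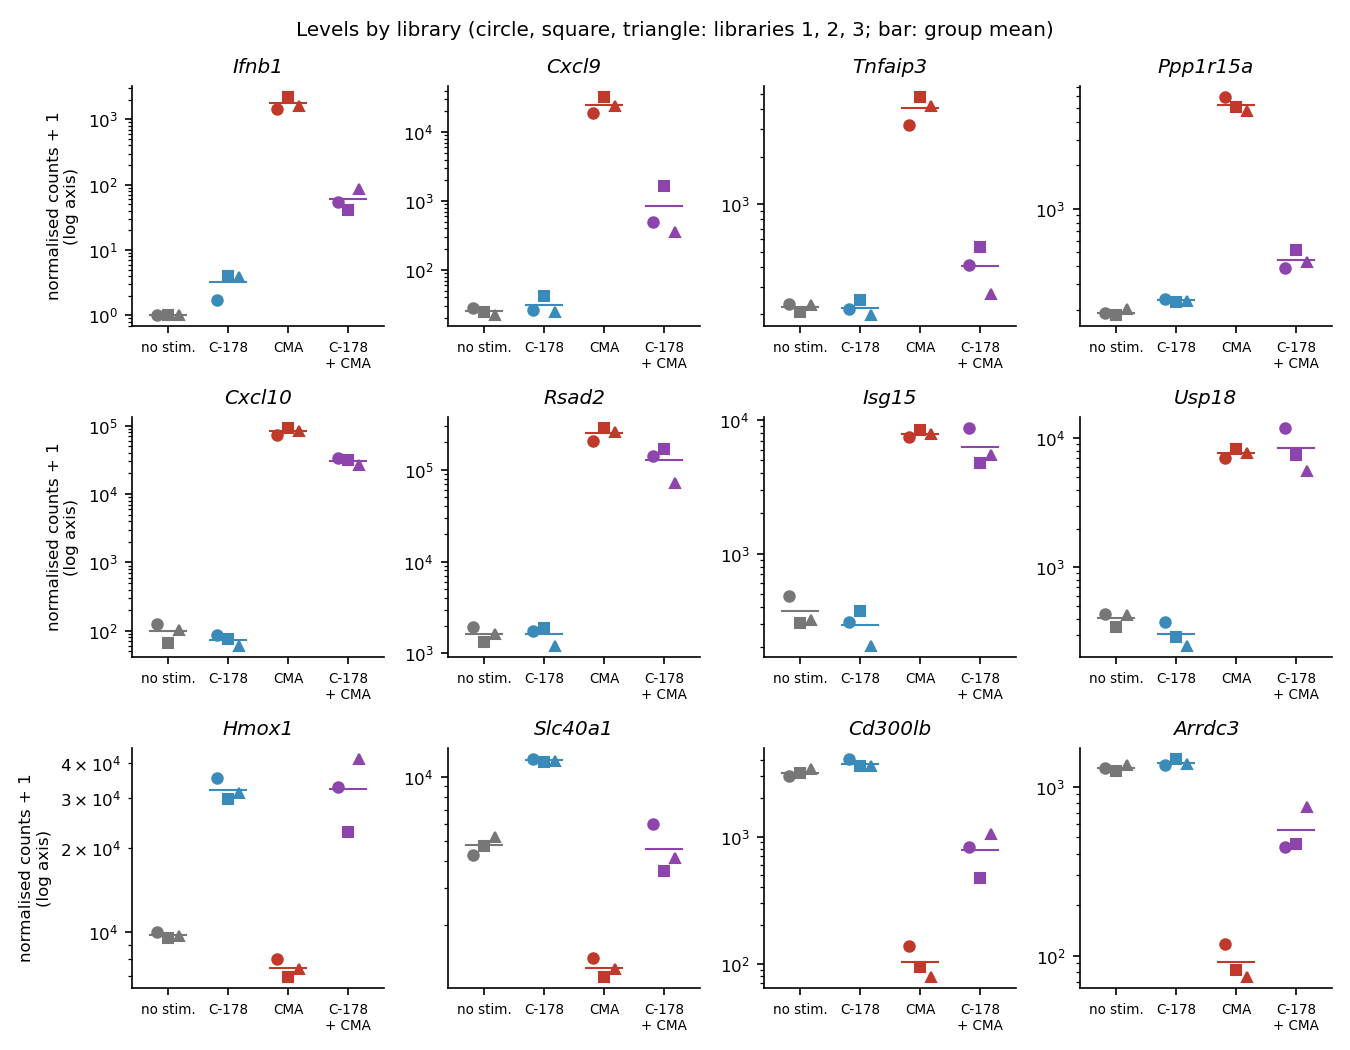
Normalised counts + 1 (log axis, whose range differs between panels) of 12 genes in all 12 libraries. Circles, squares and triangles are libraries 1, 2 and 3 of each group (a pair of the libraries without stimulation share a heading and have no number), and bars are group means. The C-178 plus CMA libraries lie below the CMA libraries for Ifnb1, Cxcl9, Tnfaip3, Ppp1r15a, Cxcl10 and Rsad2, overlap them for Isg15 and Usp18, and lie above them for Hmox1, Slc40a1, Cd300lb and Arrdc3.

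The interferon genes were among the steepest falls. Ifnb1, which encodes interferon beta, stood at 1424, 2211 and 1630 normalised counts in CMA libraries 1, 2 and 3 and at 54.0, 40.0 and 84.0 in C-178 plus CMA libraries 1, 2 and 3. Every library with the inhibitor was far below every library without it, and the means were 1755 ± 408 and 59.4 ± 22.5 (SD, n = 3 each), a 29.6-fold difference. The log2 change was -4.90 ± 0.36 (SE, adjusted p = 3.735e-06). No read of Ifnb1 was found without stimulation, so the gene had not returned to that level: it was still 5.85 higher on the log2 scale in C-178 plus CMA than without stimulation (adjusted p = 6.769e-08). Of the 18 type I interferon genes listed, 3 passed the filter and all 3 fell; the filter admits them through the CMA libraries, where they are high. Ifna4 had 71 reads over the CMA libraries and 2 over the C-178 plus CMA libraries, a 93.6-fold ratio after scaling with a 95% counting interval of 25.0 to 788. Ifna2 had 48 and 5 reads, a 25.3-fold ratio (10.1 to 81.5). Intervals of this kind cover counting error only.

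Chemokine genes fell as well, led by Cxcl9 and Cxcl11, 2 of the 3 ligands of the receptor CXCR3, which draws T cells. Of 19 tested ligands 11 fell and 0 rose, beside 13.5% and 10.6% of all genes, and the median change was -0.83. Cxcl9 was at 18730, 32460 and 23880 normalised counts with CMA and at 499, 1669 and 354.5 with C-178 plus CMA, so that library 2 kept the highest residual level. Its change of -5.19 ± 0.43 (adjusted p = 7.774e-06) was 29.8-fold in the means. Cxcl11 went from 399, 476 and 430 to 31.2, 31.4 and 64.2, a change of -3.41 ± 0.41. Cxcl10, the remaining ligand, was lowered from 71630, 92360 and 83460 to 34070, 31750 and 26610. Its groups did not overlap, and the change was -1.42 ± 0.21 (adjusted p = 5.809e-04). That was a smaller fall than that of Cxcl2, whose change was -2.28 with the 2 groups alone (2-group adjusted p = 0.0114).

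Among chemokines of the CC family, Ccl3 and Ccl4 fell. Ccl3, an attractant of monocytes and T cells, was at 12780, 19890 and 17020 with CMA and at 2565, 3925 and 4456 with the inhibitor added (-2.20 ± 0.19). Ccl4, its close relative, fell by 1.71 ± 0.22 on the log2 scale. The monocyte attractant Ccl2 changed least among the 11, from 5333, 5860 and 5499 to 3811, 3231 and 3637 (-0.65 ± 0.14, adjusted p = 0.00580), and it lost its call in 2 of the alternative fits. Ccl5 had no single direction: it was at 7445, 9618 and 8240 with CMA and at 2183 and 2729 in C-178 plus CMA libraries 1 and 2, but at 34420 in library 3. Its mean change of -0.51 had a 95% interval of -2.08 to 1.06.

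Cytokine genes split into a strongly lowered set and a set without a call. Of 21 tested, 9 fell and 1 rose (median -0.71), beside 13.5% and 10.6% of all genes. The 9 falls were also found with only the 2 groups in the fit. Tnfsf15, a TNF-family ligand, was at 1854, 2747 and 2531 with CMA and at 198, 324 and 190 with C-178 plus CMA (-3.34 ± 0.28). Il6 was at 562, 724 and 608 and then at 55.4, 91.4 and 67.2 (-3.15 ± 0.53). Il1a, for interleukin 1 alpha, went from 95.6, 166 and 149 to 13.6, 14.3 and 16.8 (-3.08 ± 0.27). None of the 3 genes had overlapping groups, a condition for naming the largest falls.

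The gene of tumour necrosis factor was among the 9 as well. Tnf stood at 4762, 8209 and 6630 with CMA and at 872, 1268 and 1256 with C-178 plus CMA, a 5.77-fold difference in the means (-2.51 ± 0.20, adjusted p = 7.657e-06). Il1b, for interleukin 1 beta, was at 224, 219 and 226 and fell to 61.7, 81.4 and 82.5. That was below the unstimulated libraries: the change against them was -0.75 (adjusted p = 0.00339). Il27 fell by 1.66 ± 0.24 on the log2 scale. The member that rose was Il10, which encodes an anti-inflammatory cytokine: it was at 396, 460 and 442 with CMA and at 534, 900 and 1042 with the inhibitor added (0.88 ± 0.21, adjusted p = 0.0109, 2-group adjusted p = 0.0601). With the 2 groups alone no cytokine gene rose.

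NF-κB feedback genes fell almost throughout. Of 21 tested subunits, inhibitors and survival targets, 17 fell and 0 rose against the 13.5% of all genes that fell, with a median of -0.90, and 12 fell with the 2 groups alone. Tnfaip3, which encodes the ubiquitin-editing enzyme A20 that switches NF-κB signalling off, was at 3166, 4770 and 4209 normalised counts with CMA and at 412, 533 and 269 with C-178 plus CMA. The 10.01-fold difference between means corresponded to -3.35 ± 0.22 (adjusted p = 1.028e-06). Its promoter is one of those shown above with κB matches, and 12 of the 24 windows of 18 matched list members held one. Among all tested genes, 8.8% of 11119 windows did, and among those that fell 2-fold or more 12.3%. The members were listed as NF-κB genes, so their share describes the list and not which members fell.

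Nfkbia encodes the inhibitor IκBα. It was at 5333, 5826 and 5483 with CMA and at 1281, 1749 and 1594 with the inhibitor added (-1.86 ± 0.14), and its level with both agents was 0.65 above that without stimulation. Birc3, an inhibitor of apoptosis, went from 2301, 3075 and 2992 to 722, 912 and 843 (-1.75 ± 0.14). Against no stimulation its level with both agents differed by 0.24, which did not pass the test (adjusted p = 0.259). The genes of A20-binding Tnip3 (-1.75 ± 0.17) and of the caspase 8 regulator Cflar (-1.79 ± 0.20) fell by similar amounts. The members without a call were Nfkbid, Tnip1, Traf2 and Cyld. Cyld, a deubiquitinase, was at 1028, 1105 and 1109 and then at 990, 1221 and 897, a difference of -0.07 with a 95% interval of -0.35 to 0.20.

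Feedback genes of cytokine receptor signalling split by member. Of 11 SOCS and PIM genes 5 fell and 0 rose (median -0.50), beside 13.5% and 10.6% of all genes. With the 2 groups alone, and without CMA library 2 or 3, 3 fell. Socs3, an inhibitor of signalling by receptors of the interleukin 6 family, had one of the largest falls of any gene: it was at 4274, 4585 and 4341 with CMA and at 251, 507 and 159 with both agents. The change was -4.01 ± 0.30 (adjusted p = 3.735e-06). Cish, a target and inhibitor of STAT5 signalling, fell by 2.49 ± 0.42 and Pim1, a kinase induced by STATs, by 1.68 ± 0.27 on the log2 scale. Socs1, an inhibitor of JAK kinases, was spread wide, at 2485, 1768 and 848 against 2235, 2118 and 2237 with CMA, and had no call (interval -1.45 to 0.44).

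Kinases and factors on the interferon route itself moved less. Of 19 genes of interferon regulatory factors, STATs and JAKs, 5 fell and 0 rose, beside 13.5% and 10.6% of all genes. With the 2 groups alone 2 of them fell. Without C-178 plus CMA library 2 there were 9 falls, and without C-178 plus CMA library 1 or any 1 of the CMA libraries 3. Irf8, a factor of the myeloid lineage, fell by 0.94, Irf1 by 0.83 (2-group adjusted p = 0.0514) and Jak2 by 1.09 on the log2 scale. Irf7, the factor that amplifies interferon alpha production, was at 17230, 21040 and 19310 with CMA and at 16040, 15290 and 27120 with both agents. It had no call, at a difference of -0.02 with an interval of -0.42 to 0.37.

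In the list of the STING pathway, 6 of 26 genes fell and 3 rose (median -0.03), beside 13.5% and 10.6% of all genes. With the 2 groups alone 2 fell and 0 rose. Tmem173, which encodes STING, was at 701, 764 and 696 with CMA and at 687, 581 and 484 with both agents. The groups did not overlap, but the change of -0.31 ± 0.15 was not called (adjusted p = 0.131, interval -0.63 to 0.00). Tbk1 fell by 0.62 (2-group adjusted p = 0.0539) and the gene of its relative IKKε, Ikbke, by 0.69, and both means were then near those without stimulation, at differences of 0.11 and -0.07 that were not called. Ikbke lost its call in 1 alternative fit. Samhd1, for an enzyme that breaks down nucleotides (-0.78), and the DNA-binding Ifi204 (-0.98) lost theirs with the 2 groups alone, at adjusted p = 0.0888 and 0.0742. Without CMA library 2, 3 members fell and 0 rose; the rises were also 0 without CMA library 3 or C-178 plus CMA library 1, and 6 without C-178 plus CMA library 2.

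**Figure D2:**
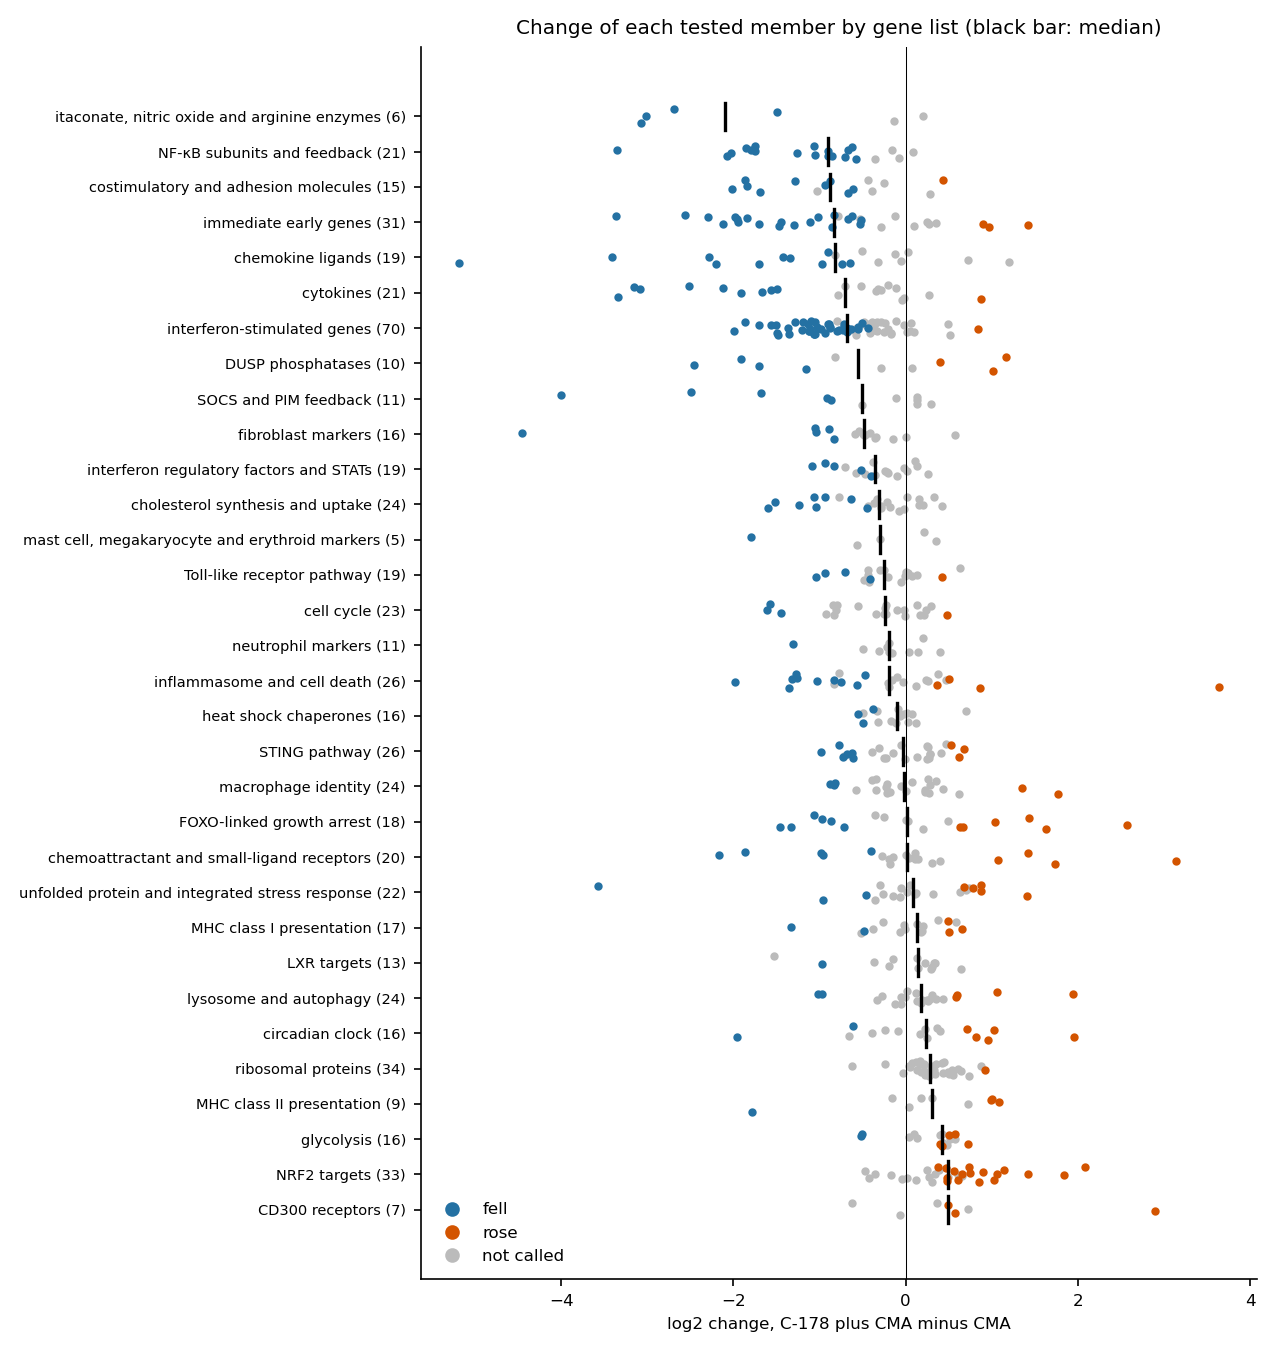
Log2 change (C-178 plus CMA minus CMA) of each tested member of the gene lists with at least 5 tested members, ordered by their median (black bar); the number tested is in brackets. Blue points fell, orange points rose and grey points were not called in the fit of all 12 libraries, and the list of 6 itaconate, nitric oxide and arginine enzymes has the lowest median, -2.10.

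Interferon-stimulated genes fell in part, and those that fell mostly stayed far above the unstimulated level. Of 70 tested genes 40 fell and 1 rose (median -0.68), beside 13.5% of all genes that fell. The number was 16 with the 2 groups alone, 21 without CMA library 2, 25 without CMA library 3, 28 after quantile normalisation and 35 with the length and GC trend removed. Set against the unstimulated libraries, which both comparisons share, 69 of the 70 were higher with CMA (median 3.17, beside 19.4% of all genes) and 70 were higher with C-178 plus CMA (median 2.46, beside 11.1%). The 40 that fell had a median transcript length of 3376 bases, the other 29 with a length one of 2597. An ISRE match was present in 25 of the 68 promoter windows (36.8%) of 54 matched members, against 2.9% of the windows of all tested genes. Among tested genes that fell 2-fold or more, 5.8% of windows held one. The members were listed as interferon-stimulated genes, so their share describes the list and not which members fell.

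The largest falls of this list were in RNA sensing, guanylate-binding proteins and the p200 family. Ifih1, which encodes the double-stranded RNA sensor MDA5, was at 33090, 44570 and 40370 with CMA and at 9948, 17520 and 7059 with both agents. The change was -1.86 ± 0.25 (adjusted p = 3.360e-04), and the level was still 3.24 above that without stimulation. Gbp5, a guanylate-binding protein that acts in inflammasome assembly, went from 27340, 37500 and 34100 to 8677, 14030 and 4540 (-1.99 ± 0.30). Library 2 was again the highest of the 3 in both. Gbp2 fell by 1.35 ± 0.22, Ifi205 by 1.49 and Iigp1, an immunity-related GTPase, by 1.56 ± 0.30 on the log2 scale.

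Antiviral effectors with very high levels fell as well. Ifit2 was at 145600, 185000 and 170100 with CMA and at 66820, 97960 and 40770 with both agents (-1.37 ± 0.28). Ifit1, which binds foreign RNA ends, went from 125400, 143500 and 134600 to 70600, 80750 and 41210 (-1.12 ± 0.27, 2-group adjusted p = 0.0539). Rsad2, the gene of viperin, went from 206400, 286400 and 256900 to 140800, 168200 and 71160 (-1.06 ± 0.28, 2-group adjusted p = 0.108). The groups of these 3 genes did not overlap, a condition for naming genes by their level, and library 3 was the lowest each time. Slfn5 (2-group adjusted p = 0.0912) and Parp14 (0.104) fell by 1.29 and 1.14. Mx1 fell by 0.87 but lost its call in 12 alternative fits (2-group adjusted p = 0.134).

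Other members had no call, and for the 4 named here the interval from the fit of all 12 libraries excluded a 2-fold fall. Those intervals rest on a spread pooled over the 4 groups. The C-178 plus CMA libraries varied most (median SD 0.34, against 0.115 to 0.179 in the other groups), so the intervals may be too narrow. Isg15, the ubiquitin-like modifier with the 3 overlapping ISRE matches above, was at 7460, 8430 and 7832 with CMA and at 8723, 4792 and 5487 with both agents. The library with the highest Isg15 had both agents, and the difference of -0.37 had an interval of -0.91 to 0.17. Usp18, which removes ISG15 from proteins, was at 7046, 8171 and 7729 and then at 12000, 7427 and 5585 (0.05, interval -0.45 to 0.55). Oasl1, a regulator of Irf7 translation, had a change of -0.36 (interval -0.72 to 0.00) and Ifit3 one of -0.41 (-0.82 to -0.01), both with lower levels in all 3 libraries and adjusted p of 0.127 and 0.121. The single member to rise was Bst2, which encodes tetherin, at 2940, 2988 and 2742 with CMA and 5964, 3518 and 6642 with both agents (0.84 ± 0.19, adjusted p = 0.00727, 2-group adjusted p = 0.0613). No member rose with the 2 groups alone.

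Immediate early genes, which transcription factors already in the cell switch on within minutes, fell more often than not. Of 31 tested 20 fell and 3 rose (median -0.83), beside 13.5% and 10.6% of all genes. There were 14 falls and 1 rise in the 2 groups alone. Maff, a small MAF factor, was at 119, 186 and 174 with CMA and at 20.2, 22.9 and 6.11 with both agents (-3.36 ± 0.40). Jun, an AP-1 subunit, went from 3934, 3643 and 3805 to 916, 1444 and 726 (-1.94 ± 0.19). Against the unstimulated mean of 1349 its level with both agents differed by -0.45, which was not called (adjusted p = 0.118). Egr1, a zinc finger factor of the serum response, fell by 2.12 ± 0.23, the stress gene Gadd45b by 1.71 and Ier3 by 1.98 on the log2 scale. Fos, the other classical AP-1 subunit, was at 780, 945 and 914 and then at 1050, 855 and 410, without a call (interval -0.86 to 0.28).

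The 3 early genes that rose had been below the unstimulated level with CMA. Zfp36l2, an mRNA decay factor, stood at 458, 355 and 402 with CMA, at 902, 1162 and 1199 with both agents and at 5532 on average without stimulation; its rise was 1.42 ± 0.19. The orphan receptor gene Nr4a1 rose by 0.96 (2-group adjusted p = 0.0735) and the kinase gene Plk3 by 0.89 (2-group adjusted p = 0.0785). DUSP genes, which encode phosphatases of MAP kinases, divided as well: 4 of 10 fell and 3 rose, beside 13.5% and 10.6% of all genes. With the 2 groups alone 3 fell and 1 rose. Dusp16, which acts on JNK, was at 1155, 1613 and 1522 with CMA and at 308, 437 and 125 with both agents (-2.46 ± 0.33). Dusp6, which acts on ERK, rose from 87.4, 120 and 112 to 308, 264 and 167 (1.17 ± 0.20).

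Ppp1r15a had the smallest p of all genes. It encodes GADD34, the subunit that directs a phosphatase to eIF2α and so ends the translational block of the integrated stress response. Its levels were 5937, 5070 and 4763 with CMA and 388, 516 and 428 with both agents, against 190 on average without stimulation. The 3 libraries with the inhibitor were close to each other and 11.85-fold below the CMA mean, a change of -3.57 ± 0.13 (adjusted p = 3.947e-09). Ppp1r15b, which encodes another subunit that directs the phosphatase to eIF2α, fell by 0.96 ± 0.18. Of the 22 genes of this stress list, these included, 3 fell and 5 rose (median 0.08), beside 13.5% and 10.6% of all genes. No rise was left with the 2 groups alone. Leaving out C-178 plus CMA library 1 or 3 or CMA library 3 left 2 rises, CMA library 1 left 3 and CMA library 2 left 1. Atf4, the central factor of the response, was at 1759, 1672 and 1564 and then at 1273, 1539 and 2628, without a call (interval -0.39 to 0.50). Heat shock chaperones had 3 falls among 16, beside 13.5% of all genes that fell, and none with the 2 groups alone.

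Activation markers of the cell surface fell too. Of 15 costimulatory and adhesion genes 9 fell and 1 rose (median -0.88), beside 13.5% and 10.6% of all genes. With the 2 groups alone 5 fell. Icam1, the ligand of leukocyte integrins, was at 10500, 14640 and 13150 with CMA and at 3476, 3942 and 3169 with both agents (-1.85 ± 0.14, adjusted p = 4.273e-06). The early activation antigen Cd69 went from 29120, 41120 and 35380 to 11060, 11840 and 4857 (-2.02 ± 0.26). Cd40, the receptor through which T cells activate macrophages, fell by 1.69 ± 0.30 and Slamf7 by 1.87 ± 0.26 on the log2 scale. Cd69 nevertheless remained 7.29 above the unstimulated level (adjusted p = 5.685e-10).

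Genes of cell death moved in both directions. Of 26 listed with the inflammasomes 10 fell and 4 rose, beside 13.5% and 10.6% of all genes. With the 2 groups alone 6 fell and 2 rose. Falls also numbered 6 without CMA library 2, and rises 2 without C-178 plus CMA library 3 or CMA library 3. Fas, a death receptor, was at 302, 545 and 398 with CMA and at 109, 110 and 87.1 with both agents (-1.98 ± 0.21). The kinase Ripk1 (-1.32 ± 0.18) and the BH3-only gene Pmaip1, for NOXA (-1.27 ± 0.15), fell as well. Bmf, another pro-apoptotic BH3-only gene, rose more than any other gene of these lists: it was at 16.5, 1.97 and 3.67 with CMA and at 69.6, 64.3 and 101 with both agents (3.64 ± 0.46, adjusted p = 1.938e-04). Its mean without stimulation was 376. Bcl2l1, the gene of the survival factor BCL-xL, rose by 0.87 ± 0.13.

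Enzymes that make itaconate and nitric oxide were lower with the inhibitor. Of 6 tested members 4 fell, beside 13.5% of all genes, 3 of them with the 2 groups alone. Irg1, whose enzyme turns cis-aconitate into itaconate, was at 26840, 49420 and 39090 with CMA and at 4577, 6524 and 2923 with both agents (-3.07 ± 0.28). Nos2, the inducible nitric oxide synthase, went from 180, 462 and 314 to 37.5, 52.8 and 22.9 (-3.02 ± 0.39). The arginine carrier Slc7a2 fell by 2.69 ± 0.48. Arg2 fell by 1.50 but lost its call in 11 alternative fits (2-group adjusted p = 0.109).

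Of 24 genes of cholesterol synthesis and uptake 8 fell and 0 rose (median -0.31), beside 13.5% of all genes that fell, and 5 fell with the 2 groups alone and without CMA library 2. Insig1, a sterol-sensing regulator, was at 1683, 2110 and 1892 with CMA and at 895, 718 and 442 with both agents (-1.52 ± 0.21). Cyp51, for a demethylase of the synthesis pathway, fell by 1.07 ± 0.14 on the log2 scale. It was then below the unstimulated level as well, by 1.32 (adjusted p = 1.156e-05). Of 13 LXR targets 1 fell and 0 rose, beside 13.5% and 10.6% of all genes. Glycolysis genes gave 2 falls and 5 rises among 16, and no call with the 2 groups alone; the rises numbered 9 without C-178 plus CMA library 2, 3 without library 1 and 2 without any 1 of the CMA libraries.

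Several of the 20 largest falls are grouped here by function, a grouping made after their values were seen. Rnd3, a small GTPase that acts on the actin skeleton, was at 801, 1131 and 1044 with CMA and at 47.4, 84.3 and 47.4 with both agents, 16.6-fold lower in the means. The change was -4.07 ± 0.24 (adjusted p = 4.790e-07), and the level with both agents was 0.58 below that without stimulation, which was not called (adjusted p = 0.105). Sdc4, the heparan sulfate proteoglycan syndecan 4, went from 3107, 5100 and 3963 to 442, 468 and 358 (-3.24 ± 0.18). Itga1, an integrin subunit that binds collagen, fell from 216, 237 and 213 to 14.9, 24.3 and 12.2 (-3.67 ± 0.33). The matrix protein gene Tnn (-3.46 ± 0.48), the collagenase gene Mmp13 (-3.61 ± 0.66) and the proteoglycan gene Vcan (-3.31 ± 0.63) fell with larger errors, as did Serpina3h (-3.46 ± 0.57) and Heatr9 (-3.46 ± 0.42).

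Fibroblast markers were checked because the extraction text in the labels speaks of embryonic fibroblasts (MEF) while the samples are labelled as macrophages. Their summed level was 2947, 5394 and 4580 normalised counts with CMA, 2788, 3430 and 1519 with both agents and 2326 to 2527 without stimulation. Macrophage identity genes summed to 509100 to 588900 with CMA and to 556200 to 673700 with both agents, and neither Csf1r (interval -0.14 to 0.60) nor Lyz2 (-0.12 to 0.64) had a call. Of the 17 fibroblast markers listed, 16 passed the filter. The remaining one, the collagen-fibril protein gene Lum, had no read in any of the 12 libraries. Of 16 tested fibroblast markers 5 fell and 0 rose (median -0.49), beside 13.5% and 10.6% of all genes. The 5 were Fap, Postn, Fn1, Col5a1 and Dcn. Only the fall of Fap held with the 2 groups alone, where the adjusted p was 0.0850 for Postn, 0.153 for Fn1, 0.107 for Col5a1 and 0.0853 for Dcn. Without CMA library 2 a single member fell, without CMA library 3 or C-178 plus CMA library 3 there were 2, without C-178 plus CMA library 1 there were 3 and without CMA library 1 there were 8. In bulk RNA, fewer cells of a type and less RNA per cell cannot be told apart, and the part of these transcripts in the matrix genes above was not tested.

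Fap lies beside Ifih1. In GENCODE M21 (mm10) Ifih1 is at chr2:62595798-62646255 and Fap at chr2:62500943-62574075, 21722 bases away, with Gcg, the glucagon gene, at chr2:62474530-62483650, all on the minus strand. Fap, a membrane protease of activated fibroblasts, was at 170, 460 and 419 with CMA and at 16.6, 42.8 and 3.06 with both agents (-4.46 ± 0.68, adjusted p = 7.477e-04). Gcg had 74 reads over the CMA libraries and 0 over the C-178 plus CMA libraries, at least 51.6-fold lower by the lower end of a 95% counting interval. It was also at 0 without stimulation and with C-178 alone, so the filter admits it only through the CMA libraries. Dpp4, next along at chr2:62330073-62412231, was not called (-1.14, adjusted p = 0.0906).

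Among the genes that rose, targets of the oxidative stress factor NRF2 had the most members of any list. Of 33 tested 17 rose and 0 fell (median 0.49), beside 10.6% of all genes that rose; 7 rose with the 2 groups alone and 17 with the length and GC trend removed. Hmox1, the haem-degrading enzyme haem oxygenase 1, was at 8015, 6904 and 7375 with CMA and at 32760, 22690 and 41370 with both agents. The lowest library with C-178 was well above the highest without it, and the change was 2.08 ± 0.18 (adjusted p = 1.146e-05), 4.34-fold in the means. C-178 alone gave 35380, 29690 and 31410, and no stimulation 10030, 9567 and 9676.

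Slc40a1, the iron exporter ferroportin, was at 1394, 1129 and 1241 with CMA and at 6001, 3590 and 4142 with both agents (1.84 ± 0.17). Its level with both agents was close to that without stimulation (mean 4739), where C-178 alone gave 12140, 11790 and 11880. Srxn1, the antioxidant enzyme sulfiredoxin, went from 656, 588 and 596.5 to 2025, 1365 and 1612 (1.42 ± 0.14). The autophagy receptor gene Sqstm1 rose by 1.06 ± 0.17. Ftl1, the light chain of ferritin, rose by 1.02 ± 0.23 (2-group adjusted p = 0.0529). Gclc, for the first enzyme of glutathione synthesis, rose by 0.74 ± 0.12. The effect of C-178 was also set against its effect without CMA, a difference that was called for 452 genes as higher (3.95%) and 685 as lower (5.99%). Among the 17 NRF2 targets that rose it was called for 1, Txnrd1, for thioredoxin reductase. Txnrd1 was at 2462, 2706 and 2494 with CMA and at 4111, 3804 and 2889 with both agents (0.48 ± 0.14, 2-group adjusted p = 0.117), and C-178 alone gave 4863, 6122 and 5354 against 2496, 2203 and 2169 without stimulation (1.25 ± 0.14). Nqo1, often used as a NRF2 marker, was low and had no call (interval -0.17 to 1.49).

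**Figure D3:**
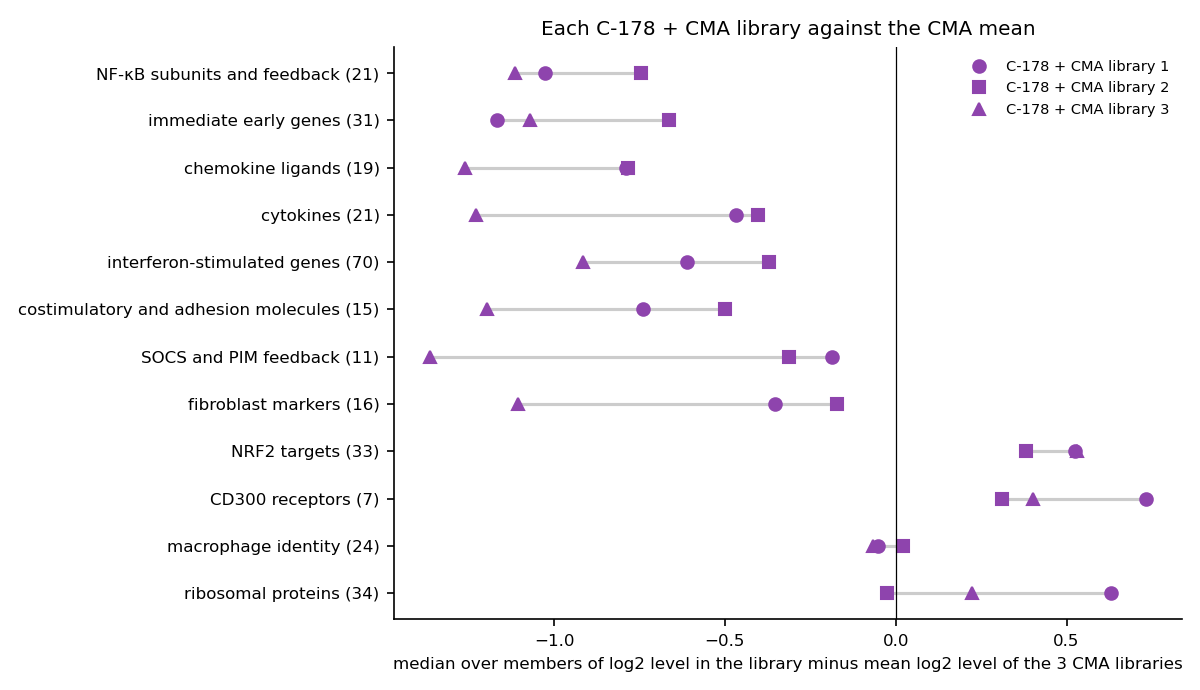
For 12 lists (number of tested members in brackets), the median over members of the log2 level in each C-178 plus CMA library minus the mean log2 level of the 3 CMA libraries. Library 3 is lowest for 7 of the 8 lists at the top, down to -1.36 for the SOCS and PIM genes, while all 3 libraries lie between 0.38 and 0.53 for the NRF2 targets.

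The lists also differed in how alike the 3 inhibitor libraries were. NRF2 targets had median changes of 0.52, 0.38 and 0.53 in libraries 1, 2 and 3. Interferon-stimulated genes had -0.61, -0.37 and -0.92, and NF-κB genes -1.03, -0.75 and -1.11. SOCS and PIM genes had -0.19, -0.31 and -1.36, so that library 3 stood far below the other pair. Ribosomal protein genes, with 1 call in 34 beside 24.1% of all genes called in either direction, had 0.63, -0.03 and 0.22. Without library 2, 13 of them rose, in a fit in which 2179 of all 11440 genes rose.

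Cd300lb, which encodes an activating receptor of myeloid cells in the CD300 family, had one of the largest rises. It was at 137, 92.8 and 77.1 with CMA and at 824, 474 and 1051 with both agents (2.89 ± 0.25, adjusted p = 1.146e-05). Without stimulation its mean was 3189, so the level with both agents lay between the 2 other groups and 2.10 below the unstimulated one on the log2 scale. Of the 7 CD300 genes 3 rose and 0 fell, beside 10.6% and 13.5% of all genes. Only Cd300lb rose with the 2 groups alone: Cd300a (0.57) and Cd300lf (0.49) had 2-group adjusted p of 0.0794 and 0.0939.

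Arrdc3, an arrestin-domain gene activated by FOXO factors, showed the same order of groups. It was at 117, 80.9 and 73.4 with CMA, at 437, 458 and 755 with both agents and at 1287 on average without stimulation (2.57 ± 0.20, adjusted p = 5.928e-06). Sesn1, a stress-responsive inhibitor of the growth kinase mTORC1, rose by 1.44 ± 0.16 and Tsc22d3, the glucocorticoid-induced leucine zipper GILZ, by 1.62 ± 0.29. The FOXO-linked list as a whole had 6 rises and 6 falls among 18 genes (median 0.02), beside 10.6% and 13.5% of all genes. Bcl6 (-0.97) and Arrdc4 (-1.06) were among the falls. With the 2 groups alone, 5 fell and 3 rose, and 3 rose without CMA library 2.

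Receptors for small ligands rose and fell. Cnr2, the cannabinoid receptor of immune cells, was at 24.7, 5.92 and 12.8 with CMA and at 162, 74.3 and 136 with both agents (3.14 ± 0.38). P2ry6, a receptor for uridine diphosphate, went from 452, 373 and 360 to 1019, 981 and 2243 (1.73 ± 0.25). Ptger4, a receptor for prostaglandin E2, went the other way, from 237, 300.0 and 270 to 41.1, 60.0 and 82.5 (-2.17 ± 0.21). It was then below the unstimulated mean of 239, by 2.00 on the log2 scale (adjusted p = 1.109e-05). Of the 20 receptors on the list 5 fell and 4 rose, beside 13.5% and 10.6% of all genes. With the 2 groups alone 2 fell and 3 rose. Falls numbered 3 without C-178 plus CMA library 1, CMA library 2 or CMA library 3.

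Cebpa, a factor needed to form myeloid progenitors, was at 293, 209 and 182 with CMA and at 1281, 527 and 668 with both agents (1.77 ± 0.36). Tfeb, which controls lysosome genes, rose by 1.95 ± 0.28 while its relative Mitf fell by 0.97 ± 0.18. Of 24 tested macrophage identity genes 2 rose, Cebpa among them, and 3 fell, beside 10.6% and 13.5% of all genes. Of the 3 falls, that of Fcgr4, an activating Fc receptor, held with the 2 groups alone (-0.83 ± 0.13). Without C-178 plus CMA library 2, 6 of the 24 fell and 4 rose, and without CMA library 2 or 3 a single one fell.

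Some rises were small in spread. B430306N03Rik stood at 597, 570 and 593 with CMA and at 2226, 1959 and 2243 with both agents (1.87 ± 0.11, adjusted p = 4.790e-07). Tifab, an inhibitor of TRAF6 signalling, was at 297, 243 and 272 and then at 873, 863 and 775 (1.63 ± 0.12). Rgs2, a regulator of G protein signalling, went from 1946, 1909 and 1885 to 4148, 4192 and 3664 (1.06 ± 0.10). In all 3 genes every inhibitor library was apart from every CMA library, a condition for naming genes by size or level. B430306N03Rik and Rgs2 were also above the unstimulated level, by 1.41 and 0.66 on the log2 scale, whereas Tifab was 0.56 below it.

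The other large rises belonged to genes of varied function. Plekhg3 (1.85 ± 0.22), Arid3a (1.66 ± 0.14), AI467606 (1.57 ± 0.19), Usp2 (1.54 ± 0.17), Fgd3 (1.54 ± 0.24), Ap5s1 (1.51 ± 0.21) and Rab3il1 (1.49 ± 0.22) rose on the log2 scale. Lyl1 rose by 1.75 ± 0.44 (2-group adjusted p = 0.0758). At higher levels Nrros, a regulator of transforming growth factor β in macrophages, rose from 930, 981 and 973 to 3143, 2033 and 2238 (1.34 ± 0.16). Tmem86a rose by 1.43 ± 0.19 and Plekho1 by 1.15 ± 0.21.

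Of 9 MHC class II genes 3 rose: H2-Aa (1.08 ± 0.22), H2-Eb1 (1.01 ± 0.16) and H2-Ab1 (1.00, 2-group adjusted p = 0.0550), while Ciita, the factor that controls them, fell from 62.6, 51.3 and 66.1 to 18.9, 25.7 and 9.17 (-1.79 ± 0.35). Of 17 class I genes 2 fell and 3 rose, and none was called with the 2 groups alone. Of 19 Toll-like receptor pathway genes 4 fell and 1 rose, and Tlr2 (-0.94 ± 0.15) was the fall that held with the 2 groups alone. Circadian clock genes gave 2 falls, among them the repressor Nfil3 (-1.96 ± 0.36), and 5 rises among 16, and 1 of each with the 2 groups alone. Cell cycle genes gave 3 falls and 1 rise among 23, with Ccne1, for cyclin E1, at -1.61 ± 0.19, and lysosome and autophagy genes 2 and 4 among 24. Beside the lists of this paragraph, 13.5% of all genes fell and 10.6% rose, so the cell cycle falls are near the share of all genes. With the 2 groups alone the cell cycle list had 1 fall and 0 rises, and the lysosome list 2 of each. Without C-178 plus CMA library 2, there were 8 falls for the Toll-like receptor list, 5 for the clock and 6 for the cell cycle. In that fit 2532 of all 11440 genes fell. Without CMA library 2, there were 2, 1 and 1 falls, in a fit in which 747 of all 11440 genes fell.

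Markers of other cells that such cultures could hold were summed for each library. Beside the calls among them given here, 13.5% of all genes fell and 10.6% rose. The neutrophil markers came to 3047 to 3324 normalised counts with CMA and 2692 to 3133 with both agents, and 1 of 11 tested fell. Lymphoid markers summed to 782 to 916 and 718 to 954, with 1 fall (Lck) among 3 tested, and the T-cell receptor genes Cd3e, Cd3d and Cd3g had 2, 1 and 5 reads over the CMA libraries and 7, 9 and 7 over the C-178 plus CMA libraries. Dendritic cell markers summed to 110 to 129 and 95.7 to 169, with no call among 4. Mast cell, megakaryocyte and erythroid markers summed to 297 to 332 and 251 to 566, with 1 fall (Kit, 2-group adjusted p = 0.0741) among 5, and the haemoglobin genes Hba-a1 and Hbb-b1 were at 0 in all libraries. A value of 0 need not mean absence: the glycolysis gene Eno1 also had 0 reads with CMA and 1 with both agents. The part of these other cells in the results was not tested.

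**Figure D4:**
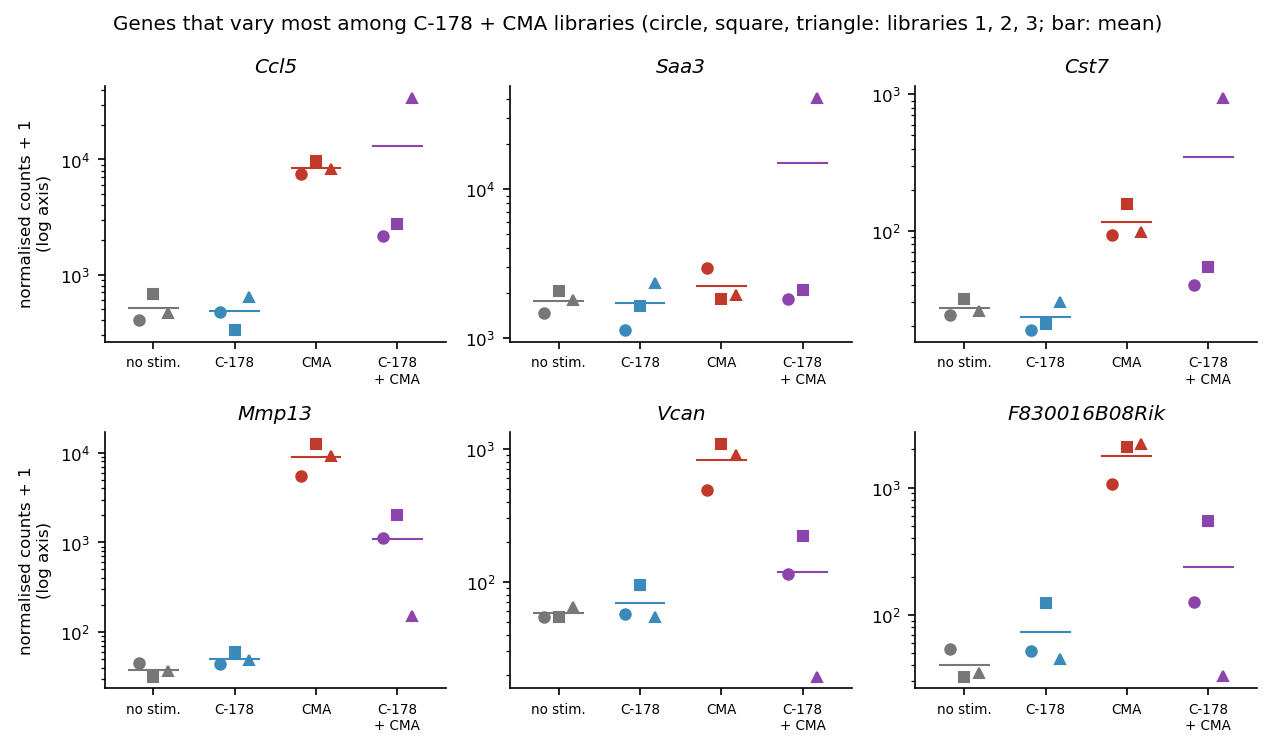
Normalised counts + 1 (log axis, whose range differs between panels) of 6 of the 10 genes that varied most among the C-178 plus CMA libraries, in all 12 libraries. Circles, squares and triangles are libraries 1, 2 and 3 and bars are group means. Library 3 is the highest of the C-178 plus CMA libraries for Ccl5, Saa3 and Cst7 and the lowest for Mmp13, Vcan and F830016B08Rik.

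The C-178 plus CMA libraries disagreed most on a small set of genes. Saa3, an acute phase protein gene of activated macrophages, was at 1822 and 2100 in libraries 1 and 2 and at 40940 in library 3, against 2942, 1832 and 1938 with CMA. Cst7, the protease inhibitor cystatin F, was at 39.1, 52.8 and 946, and Ccl5, given above, had the same order. Mmp13 went the other way, at 1127, 2025 and 150 against 5533, 12430 and 9143 with CMA. Vcan (114, 220 and 18.3) and F830016B08Rik, an interferon-inducible GTPase gene (125, 548 and 32.1), were likewise lowest in library 3. Gdap10, Il18rap and 9930111J21Rik1 had their lowest value there too, and 2610005L07Rik had its lowest in library 1. These 10 genes were picked for their spread, so their order among libraries is a description.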

How the data were processed

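RNA of 12 libraries was sequenced after a stranded mRNA kit, per the labels. Per the submitters' processing notes, Bowtie2 2.2.1, limma 3.18.13 and the build mm10 were used; the counting tool and the annotation are not named in the labels. The deposited signal values are the authors' normalised counts for 24062 entries, which look like counts divided by a size factor per library. Dividing by the smallest step gave whole reads for 100% of values (tolerance 0.01). A further 12 columns (Cook's distances) stayed unused, and 27 entries whose names had become dates were not named. Entries with more than 10 normalised counts in at least 3 libraries were tested, as log2(value + 1), with limma 3.58.1 in R 4.3.3. The fit had a mean for each group, a trended spread over all 12 libraries and Benjamini-Hochberg adjustment over 11440 genes. The planned unit was normalised values, so limma stayed the first test and edgeR 4.0.16 and DESeq2 1.42.0 on recovered reads were alternatives. On simulated data the test recovered 70% of genes changed 2-fold and 97% of those changed 4-fold, with 11 false calls among 11440 genes. The simulation gave a gene the same spread in every group. In the data the C-178 plus CMA libraries varied most (median SD 0.34, against 0.115 to 0.179 in the other groups). These rates are therefore not known to hold for the real comparison.

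The gene lists and this comparison were chosen with earlier results of these data known. Genes named in the text were the 20 largest falls and rises among called genes with groups apart and a mean of at least 100, the 10 falls and 10 rises of at least 2-fold with the highest levels, up to 5 members of each list with the smallest p, the 10 most variable among C-178 plus CMA libraries, and a set of known pathway genes. Members named because they moved against their list, lay beside Ifih1 or marked another cell type were picked after their values were seen. Coordinates are from GENCODE M21 (mm10) and promoters from RefSeq (GRCm38.p6). Results for some genes are not reported here.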

Additional observations from a re-analysis of the deposited data

Results flagged for a closer look

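The effect of C-178 on Txnrd1 differed between cells with and without CMA: the log2 change was 0.48 ± 0.14 with CMA and 1.25 ± 0.14 without, a difference of -0.765 ± 0.20 (limma interaction term over 11440 genes, adjusted p = 0.0321, 3 libraries in each of 4 groups). The rise with CMA was seen in 3 of 3 libraries. It was the 1 of 17 NRF2 targets whose difference passed this test; that of Hmox1 was 0.36 (adjusted p = 0.340). Groups of 3 libraries were not searched for single outlying libraries.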

How the results depend on the processing

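The counts of lower and higher genes depended on which libraries set the spread. With only the 2 groups in the fit they were 593 and 261, and 425 and 125 at least 2-fold. Adding a replicate block to that fit gave 747 and 284, with 150 genes at least 2-fold higher. Same-numbered libraries of the groups correlated at -0.141, 0.18 and -0.162, and 1 of 3 CMA libraries correlated best with its own number. Correlations among so few libraries cannot show whether the numbers pair them. On recovered reads, edgeR called 1405 lower and 1350 higher genes and DESeq2 1646 and 1422. A minimum mean of 50 normalised counts left 165 genes at least 2-fold higher. Leaving out 1 library at a time gave 747 to 2532 lower and 597 to 2179 higher genes, 408 to 1071 and 191 to 529 at least 2-fold. The other settings (edgeR, DESeq2, TMM, quantile normalisation, other pseudocounts, no filter, thinned reads, array weights, no trend, and the removal of the length and GC trend, which was added after the data were seen) stayed within 1.5 times of the 4 counts. Of 120 named genes that fell, 78 kept their call in every setting, and of 57 that rose, 35 did. Among genes called in the fit reported or in the alternative, direction turned for Dnaja1 and Cst7: Dnaja1 was at 0.028 (adjusted p = 0.903) with the length and GC trend removed, and Cst7 ranged from -1.28 (adjusted p = 0.00844, without C-178 plus CMA library 3) to 1.0 with single libraries left out. The cause was not tested. Values with no call in either of those fits also changed sign, such as some of Ccl5 (-1.78 to 0.65 over all settings) and Saa3 (-0.16 to 2.75). Doses, a single time point, 3 libraries a group and unknown separateness of the cultures limit what the comparison covers, and genes under the filter were not tested.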
